A study of Mus musculus with 4 samples.

Results

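The liver of male C57BL/6 mice after 15 weeks on a high-fat, high-sucrose (HFHS) diet was compared with the liver after 5 weeks on it, gene by gene. C57BL/6 is a widely used inbred laboratory strain that gains weight and stores liver fat on such a diet. The mice began the diet at 5 weeks of age, so the animals were 10 weeks old at the earlier time and 20 weeks old at the later one, and both were past puberty, unlike the 5-week-old animals sampled before the diet. The contrast uses the 2 arrays labelled HFHS_5W and HFHS_15W of 4 in the series, which also holds arrays at 0 and 10 weeks. Each time was read on 1 array, the study's design gives 4 mice for each time and leaves unstated whether their RNA was pooled, and both groups ate the same diet. The comparison asks which genes differed with longer feeding, and diet time and age cannot be told apart in it because no animals on another diet are analysed here.

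Of 34760 genes on the array, 17421 were well above background on both arrays and count here as measured, through 23231 probes. Values are log2 levels of the processed signal, on a scale where 0 is the 75th percentile of all spots at 5 weeks and the other arrays were shifted so that the median measured probe did not move. A gene was called when the levels differed at least 2-fold, which is 1 on the log2 scale. With 1 array a group the differences have no replicate check, no test was possible, and the number of arrays limits the precision. The spread of a probe printed 10 times on an array was 0.073 at 5 weeks and 0.065 at 15 weeks (median SD, log2), and this covers error between spots and not between animals.

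Prolonged overfeeding loads hepatocytes with triglyceride, and in mice this steatosis can progress to inflammation and scarring. Resident Kupffer cells are then joined by macrophages recruited from blood, which take up lipid and switch on genes such as Trem2 and Gpnmb, and stellate cells lay down collagen. The adult male liver is also set apart by growth hormone, which reaches it in pulses in males, acts through the transcription factor STAT5 and keeps up a group of male-biased genes.

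The arrays of both times read as liver. The hepatocyte genes Alb, encoding albumin, and Ttr, encoding transthyretin, had levels of 11.11 and 9.75 at 5 weeks and 10.92 and 9.75 at 15 weeks. Of 17 pancreas markers 4 were measured, with differences from −0.67 to −0.08. The 9 measured erythroid markers lay between −0.61 and 0.38, and none was called. The share of spots above background was 44.5% at 5 weeks and 48.3% at 15 weeks, no spot was saturated, and spots in a locally bright patch of the slide numbered 678 and 2073.

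In this contrast 1092 genes (6.27% of those measured) were at least 2-fold higher at 15 weeks and 491 (2.82%) were at least 2-fold lower, or 9.09% either way, and the 5th and 95th percentiles of all genes were −0.72 and 1.12. At 4-fold the counts were 146 higher and 102 lower. The lower count held many probes of 1 kind: 117 of the 491 genes were read by a probe with a run of the dinucleotide GT, described further on. Without such probes 1096 genes (6.33%) were higher and 374 (2.16%) were lower. Higher calls made up 69% of all calls, and this split depended on the scaling: it was 48.6% with the 75th percentile alone, 57.5% with quantile normalization and 83.6% with spike-in scaling.

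**Figure D1:**
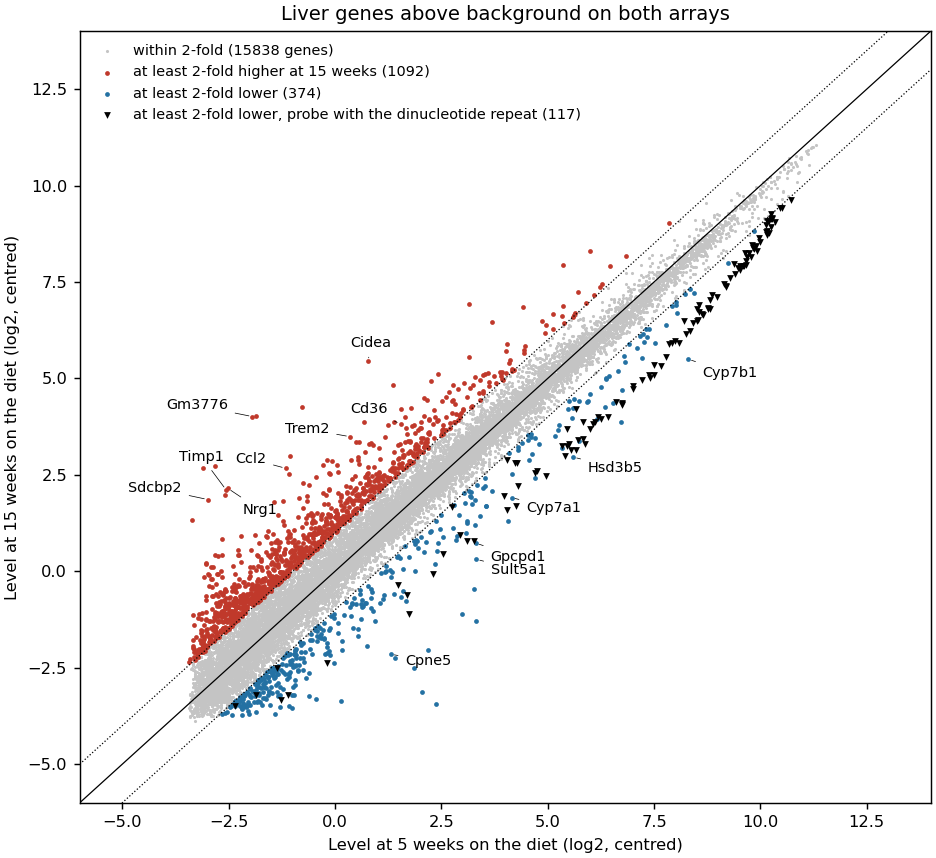
Level of each measured gene at 5 weeks (x axis, log2) against 15 weeks (y axis, log2), 1 array each; the solid line marks equal levels and the dotted lines 2-fold differences. The 1092 higher genes spread far above the line at low and middle levels, the 374 lower genes without the repeat include Cyp7b1, Hsd3b5 and Sult5a1, and the 117 lower genes whose probe holds the dinucleotide repeat run in a band below the line.

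The 20 genes furthest above and below are given among those with a RefSeq symbol, outside the lowest 25% of levels and outside locally bright patches of the slide. Timp1, encoding an inhibitor of matrix metalloproteinases, stood at −2.56 at 5 weeks and 2.11 at 15 weeks, a 25.5-fold difference. Cidea, encoding a protein that enlarges lipid droplets, went from 0.78 to 5.44 (25.3-fold). Nrg1, encoding neuregulin, a ligand of ErbB receptors, went from −2.52 to 2.15 (25.4-fold). Ccl2, encoding the chemokine that draws monocytes, went from −1.16 to 2.67 (14.3-fold), and Spink1, encoding a trypsin inhibitor, from −1.06 to 3.0 (16.7-fold). At the top stood 2 probes of the glutathione S-transferase alpha family, Gm3776 with 61.6-fold and Gm10639 with 33-fold, whose members are near-identical, so the signal cannot be given to 1 of them. Gm10639 has 2 measured probes, at 5.04 and 1.68 on the log2 scale, and the mean of them gives 3.36. Sdcbp2, encoding a syntenin family protein, was 28.7-fold higher, Ly6d 13.6-fold, and Atf3, encoding a stress-induced transcription factor, 12.2-fold. The rest of the 20 furthest above were Ccl4, Itgax, Ifi27l2b, Trem2, H19, Ubd, Tmem171, Cdc20, Ms4a7 and Cx3cr1, with log2 differences from 3.49 for Ccl4 to 3.03 for Cx3cr1. Folds from a low 5-week level depended on the background correction. With normexp and quantile normalization the log2 difference was 3.25 in place of 4.67 for Timp1, 3.14 in place of 4.66 for Nrg1, 3.12 in place of 4.85 for Sdcbp2 and 1.91 in place of 3.49 for Ccl4, against 4.48 in place of 4.66 for Cidea. Over all named genes past 2-fold, the fold was more than 1.5 times smaller with that setting for 76 of 246 higher and 5 of 78 lower genes.

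Among the 20 RefSeq-named genes furthest below, 12 were read by a probe with the GT run. The other 8 were Cpne5 (1.31 at 5 weeks, −2.15 at 15 weeks), Sult5a1 (3.32 and 0.31), Eif4ebp3 (6.72 and 3.86), Cyp7b1 (8.30 and 5.50), Pax2 (4.06 and 1.31), Hsd3b5 (5.60 and 2.96), Gpcpd1 (3.31 and 0.73) and Tff3 (5.74 and 3.38). Sult5a1, Cyp7b1 and Hsd3b5 are male-biased enzymes of the mouse liver, and Cyp7b1 hydroxylates oxysterols on the alternative route to bile acids. Eif4ebp3 encodes a repressor of translation initiation and Tff3 a secreted trefoil peptide. With the repeat probes left out, the next furthest below were Ces4a at −2.22 and Slc22a7, encoding an organic anion transporter, at −2.20.

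Lists of genes by pathway and cell type were read as the number of measured members past 2-fold and the median member, and both can be set against 6.27% higher, 2.82% lower and a median of 0.00 over all measured genes. The lists were chosen with earlier results of these data known, so this comparison is a description and not a test. In bulk tissue, a change in the number of cells of a type and a change in RNA per cell cannot be told apart.

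**Figure D2:**
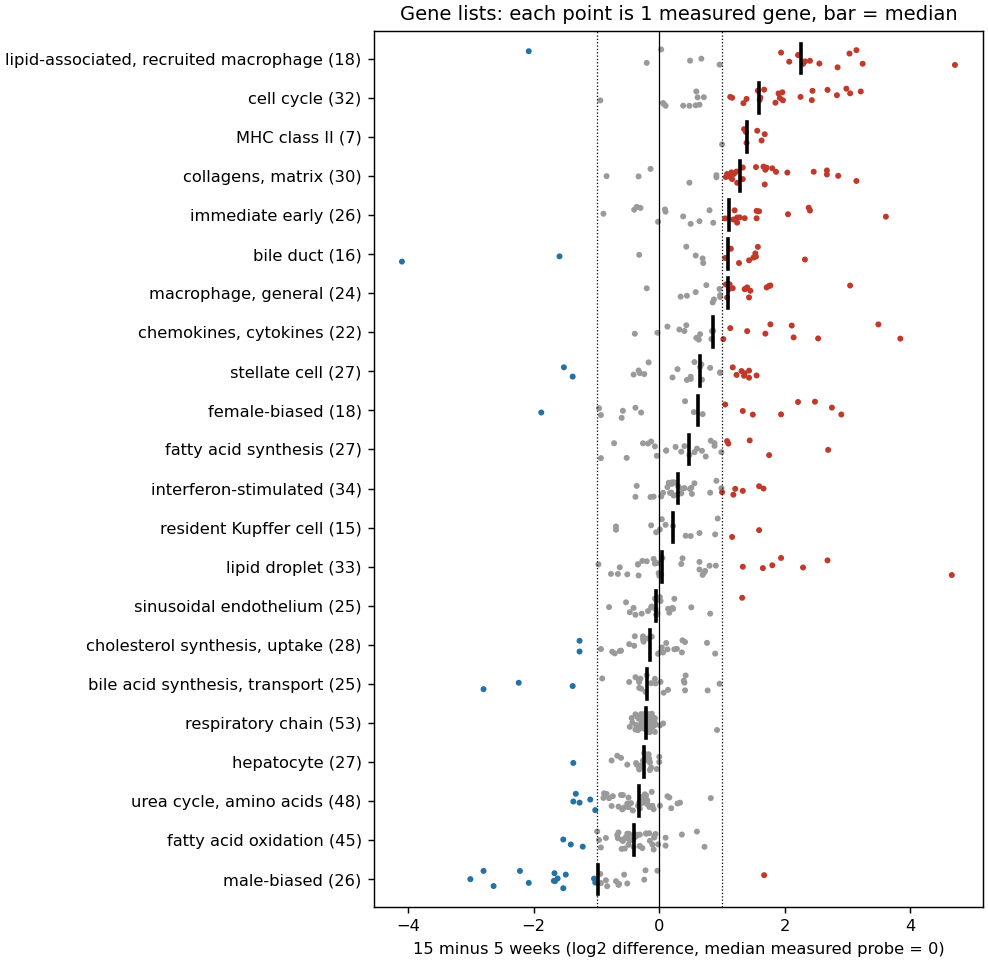
Log2 difference of 15 minus 5 weeks for every measured member of 22 gene lists (number of members in brackets), with red for at least 2-fold higher, blue for at least 2-fold lower, grey for within 2-fold and a black bar at the median. Lists of recruited macrophages, the cell cycle, MHC class II and collagens have medians above 1, hepatocyte and respiratory chain genes cluster just below 0, and the male-biased list has its median at −0.98.

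The called members differed in how far they depended on the processing. Of 324 named genes past 2-fold, 98 fell within it under normexp with quantile normalization. Past 2-fold in every setting that gave a value were 11 of the 12 higher recruited macrophage genes, 15 of 24 matrix genes, 13 of 21 cell cycle genes, 8 of 14 immediate early genes and 10 of the 13 lower male-biased genes. The share was smaller for general macrophage genes (6 of 14), p53 targets (5 of 12), NRF2 targets (5 of 11), bile duct genes (3 of 9), interferon-stimulated genes (2 of 6), innate sensing genes (2 of 6) and T and natural killer cell markers (1 of 4 higher).

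Among the 54 lists, that of recruited and lipid-associated macrophage markers had the highest median, 2.25. The list had 18 measured members, of which 12 were called higher and 1 lower, and 3 more were above background only at 15 weeks. Trem2, a lipid-sensing receptor, had levels of 0.35 at 5 weeks and 3.49 at 15 weeks (8.81-fold higher). Itgax, encoding the integrin CD11c, went from −1.44 to 1.80 (9.44-fold), and Cx3cr1, the fractalkine receptor, from −0.75 to 2.29 (8.18-fold). Clec7a, encoding dectin-1, was 5.86-fold higher, Cd63, encoding a tetraspanin of late endosomes, 5.27-fold, Spp1, encoding osteopontin, 4.98-fold, and Lgals3, encoding galectin-3, 4.19-fold. Gpnmb was 26.2-fold higher, but its 5-week level of −3.37 lay near the lowest detected signal and its spot sat in a locally bright patch at 5 weeks. Fabp5, a fatty acid binding protein that hepatocytes also make, went the other way, from 6.34 to 4.25.

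General macrophage genes had 14 of 24 members called, all of them higher, with a median of 1.09. Ms4a7 went from −0.29 to 2.75 (8.21-fold), Lyz2, encoding lysozyme, was 1.71 higher on the log2 scale, and Cd68, a lysosomal glycoprotein of macrophages, went from 3.11 to 4.51 (2.64-fold). Adgre1, encoding the F4/80 antigen, stood at 1.73 and 2.69, just within 2-fold. Itgam was 1.77 higher by its brightest probe, while another of its 3 probes read −0.61.

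Genes of resident Kupffer cells had a smaller shift, with 2 of 15 called and a median of 0.22. Clec4f, a lectin restricted to Kupffer cells, had levels of 5.25 and 5.26, Vsig4, a complement receptor, 4.62 and 4.72, and Timd4, a receptor for apoptotic cells, −0.97 and −1.02. The called members were Marco, a scavenger receptor, with 3.52 and 5.11, and Hmox1, encoding heme oxygenase, with 3.01 and 4.17. The difference between the recruited and resident lists was not tested.

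Antigen presentation by MHC class II was higher as a group. Here 6 of 7 measured members were called higher, with a median of 1.39, and H2-DMa, which helps load peptides, lay just under the threshold at a rounded 1.0. H2-Aa went from 2.03 to 3.71 (3.21-fold), H2-Eb1 and H2-Ab1 were 1.63 and 1.56 higher on the log2 scale, and Cd74, the invariant chain, went from 4.47 to 5.83 (2.56-fold). Dendritic cell markers had 3 of 8 members higher, led by Ccr7 at 1.99 and Cd209a at 1.86. Markers of T and natural killer cells had 4 of 16 members higher, among them Cd2 at 1.30 and Lck at 1.03, and 1 lower, Cd4 at −1.08. Of 7 measured B cell and plasma cell markers only Jchain was called, at 1.30, and of 7 neutrophil markers S100a8 (1.57) and S100a9 (1.28) were.

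Chemokines and cytokines had 10 of 22 members higher and none lower, with a median of 0.85. Behind Ccl2 came Ccl4 with −2.66 and 0.83 (11.2-fold), a chemokine of macrophages and T cells, and the fractalkine gene Cx3cl1 at 2.53. Cxcl14 stood at 2.14, the alarmin gene Il33 at 2.11, and the interferon-induced chemokine gene Cxcl10 went from 1.52 to 3.29 (3.42-fold). With normexp and quantile normalization Il33 was within 2-fold, at 0.90. Interferon-stimulated genes as a whole had 6 of 34 members higher and a median of 0.30, with Oas2 at 1.66 and Oas1a at 1.59 the furthest. Toll-like receptor and innate sensing genes had 6 of 19 higher, led by Tlr2 at 1.97, whose 15-week spot lay in a locally bright patch. Acute phase genes were mixed: Steap4 (1.82), Orm3 (1.41), Cd14 (1.37, also on the general macrophage list), Serpina3g (1.14) and Saa3 (1.08) were higher, and Saa1 (−1.04) and Fgl1 (−1.22) were lower. Their median of −0.12 was 0.07 under quantile normalization.

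Collagens and other matrix genes had the largest share of members called among the lists of over 20 measured genes, 24 of 30, all higher, with a median of 1.28. Col1a1 and Col3a1, the fibrillar collagens of scar tissue, went from 1.54 to 4.21 (6.36-fold) and from 2.25 to 4.92 (6.38-fold). Col1a2 went from 4.04 to 5.90 (3.63-fold), and Col6a3, a chain of the microfibrillar collagen VI, from 0.50 to 3.35 (7.2-fold). Thbs1, encoding thrombospondin 1, an activator of TGF-beta, stood at −2.75 and 0.39 (8.83-fold). With normexp and quantile normalization the log2 difference of Thbs1 was 1.75 in place of 3.14. Lum, encoding the proteoglycan lumican, stood at 1.49 and 3.28 (3.47-fold). At 10 weeks the same list had its median 0.42 below that at 5 weeks, so the higher levels were seen at 15 weeks and not at 10.

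Matrix proteases, their inhibitors and collagen crosslinkers had 9 of 16 members higher and none lower, with a median of 1.23, and 4 more were above background only at 15 weeks. Beside Timp1 these included Adam8, a metalloproteinase of myeloid cells, with −3.03 and 0.21 (9.47-fold), and the collagen crosslinking enzyme Loxl2, with 0.66 and 2.05 (2.62-fold). Mmp2, a gelatinase, stood at −0.88 and 0.37 (2.38-fold). With normexp and quantile normalization the log2 difference was 1.67 in place of 3.24 for Adam8 and 0.71 in place of 1.25 for Mmp2.

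Stellate cell and contractile genes were split. Of 27 measured members 8 were higher, 2 were lower and the median was 0.65. The receptor gene Pdgfrb went from −0.11 to 1.44 (2.94-fold), Ngfr, with its 15-week spot in a locally bright patch, from 0.91 to 2.33 (2.69-fold), and Lrat, which stores vitamin A in quiescent stellate cells, from −0.85 to 0.32 (2.25-fold). Acta2, the smooth muscle actin of activated stellate cells and of vessels, was within 2-fold, with 2.96 and 2.63. The smooth muscle genes Cnn1 (1.59 and 0.07) and Actg2 (1.35 and −0.03) were lower. At 10 weeks Acta2 stood at −0.17, and Cnn1 and Actg2 were not well above background. Sinusoidal endothelial genes had a median of −0.05 and 1 of 25 members called, Cd34, an antigen that this endothelium gains when it loses its pores, with 0.68 and 2.0. Stab2, a scavenger receptor of the same cells, stood at 4.54 and 4.5.

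Genes of the cell cycle were higher at 15 weeks in 21 of 32 measured members and lower in none, with a median of 1.59, and 8 more members were above background only at 15 weeks. Ccna2, encoding cyclin A2, went from −3.04 to 0.18 (9.28-fold), Cdc20, an activator of the anaphase-promoting complex, from −1.22 to 1.82 (8.22-fold), and Ccnb2, encoding cyclin B2, from −1.35 to 1.47 (7.1-fold). Prc1, which bundles the microtubules of the dividing spindle, was 6.4-fold higher, and the proliferation marker Mki67 5.38-fold. With normexp and quantile normalization the log2 difference was 1.67 in place of 3.21 for Ccna2, and 2.26 in place of 3.04 for Cdc20. The replication helicase gene Mcm2 went from −2.27 to −0.92 (2.54-fold), and Ccnd1, encoding cyclin D1 of the entry into the cycle, from 2.75 to 4.42 (3.18-fold). Mcm10, which is also male-biased in mouse liver, was the lowest member, with 6.37 and 5.43.

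The promoters of many of these genes share letters that are known from late cell cycle genes. In the 250 bases before the RefSeq start (GRCm38.p6), the box CCAAT was found on either strand for 20 of the 24 measured cell cycle genes in the promoter table (83.3%), against 39.7% of all measured genes and 37.5% of all genes in the table. The cell cycle homology region, searched as TTTGAA on either strand, was found for 8 of the 24 (33.3%), against 13.3% of measured genes and 18.3% of all genes. Not every called cell cycle gene was searched for both, and the promoter table held 16 of the called genes. Among the called genes that were searched, 3 held both within 100 bases of the start. These 3 are shown because they were read together at higher levels, with the matches in capitals. The stretches run from 100 bases before the start to the base before it, 5′ to 3′ on the gene's strand.
Cdc20, chr4:118437344-118437443, minus strand: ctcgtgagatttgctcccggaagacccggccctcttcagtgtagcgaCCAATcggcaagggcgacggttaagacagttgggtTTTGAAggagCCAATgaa
Prc1, chr7:80294376-80294475, plus strand: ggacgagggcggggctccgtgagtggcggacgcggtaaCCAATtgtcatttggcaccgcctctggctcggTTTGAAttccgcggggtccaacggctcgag
Ube2c, chr2:164769829-164769928, plus strand: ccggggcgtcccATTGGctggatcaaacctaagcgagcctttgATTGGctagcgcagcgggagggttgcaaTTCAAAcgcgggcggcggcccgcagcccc
In these the homology region begins 18, 30 and 29 bases before the start. Ube2c, which encodes a ubiquitin-conjugating enzyme of the anaphase-promoting complex, was 1.92 higher on the log2 scale. A match is a description of letters and not of a bound site.

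Stress and growth arrest lists differed in their share of called members. The p53 target list had 12 of 28 members higher and none lower, with a median of 0.63. Phlda3, which restrains AKT, went from 0.04 to 2.75 (6.52-fold), the cyclin-dependent kinase inhibitor Cdkn1a from 2.03 to 3.88 (3.61-fold), and the stress hormone Gdf15 from 2.60 to 4.52 (3.79-fold). Immediate early genes had 14 of 26 members higher and none lower, with a median of 1.12. Beside Atf3 these were led by Klf6 with 2.09 and 4.49 (5.28-fold), while Fos (−1.40 and 0.15), Jun (3.92 and 5.16) and Myc (−1.36 and −0.18) were between 2.27-fold and 2.93-fold higher. Egr1 stood at 3.61 and 2.73. Fos and Jun were already at 0.73 and 5.08 at 10 weeks, unlike Atf3 and Klf6 at 0.07 and 2.25. Genes of the integrated stress response had 7 of 24 higher, among them Nupr1 at 2.50, the serine synthesis enzyme Psat1 at 2.09 and Ddit3, encoding CHOP, at 1.10. Chaperones of the endoplasmic reticulum and XBP1 targets had a median of 0.02 with 1 of 30 called, Eif2ak3, encoding the sensor PERK, at 1.09.

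Lipid droplet and triglyceride genes were higher in 7 of 33 members while the list's median was 0.05. The 7 were Cidea, Plin4, Cd36, Lpl, Mogat1, Pparg and Vldlr. The droplet coat gene Plin4 went from 2.43 to 5.11 (6.39-fold), the fatty acid transporter Cd36 from 1.54 to 3.82 (4.88-fold), and the nuclear receptor Pparg from 2.36 to 4.01 (3.14-fold). Mogat1, which makes diacylglycerol, stood at −0.53 and 1.27 (3.48-fold), Lpl, encoding lipoprotein lipase, at 2.08 and 4.02 (3.84-fold), and the receptor gene Vldlr at −1.08 and 0.25 (2.51-fold). The main droplet coat of hepatocytes, Plin2, had levels of 9.16 and 9.18, and Cidec had 5.50 and 5.87. Cd36 and Lpl also stand among the macrophage markers.

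Fat-making enzymes were higher in 5 of 27 members and lower in none, with a median of 0.48. Fasn, encoding fatty acid synthase, went from −0.47 to 0.97 (2.71-fold), its regulator Srebf1 from 0.04 to 1.14 (2.14-fold), the desaturase Scd2 from −0.10 to 1.65 (3.37-fold), and the elongase Elovl7 from −2.75 to −0.06 (6.45-fold). For Elovl7 the log2 difference was 1.32 in place of 2.69 with normexp and quantile normalization. Scd1, the major hepatic desaturase, lay at 8.08 and 9.07, just within 2-fold. Cholesterol synthesis and uptake genes had 2 of 28 members called, Lpin1 and Hsd17b7, both at −1.27, and a median of −0.15.

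Fatty acid oxidation and PPAR-alpha target genes lay on the other side. Of 45 measured members 40 were below the median gene, with a median of −0.41, but only 3 passed 2-fold. Such a skew was not particular to this list. Below the median gene were also 50 of 53 respiratory chain genes, 26 of 27 hepatocyte markers and 41 of 48 urea cycle and amino acid genes. Of the 3 called fatty acid oxidation genes, Ehhadh, a peroxisomal beta-oxidation enzyme, went from 7.79 to 6.38 (2.66-fold lower). The omega-hydroxylase Cyp4a32 went from 5.95 to 4.42 (2.88-fold lower), and the coactivator Ppargc1a from 2.24 to 1.03 (2.33-fold lower). Cyp4a10 and Cyp4a14 were just within 2-fold, at −0.93 and −0.96, and Cpt1a, the gate of mitochondrial fatty acid entry, stood at −0.66.

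The male-biased list had the most lower members. Of 26 measured genes 13 were at least 2-fold lower and 1 was higher, with a median of −0.98. Hsd3b5, a steroid-metabolising enzyme, was 6.21-fold lower, Cyp7b1 6.95-fold and Sult5a1, a sulfotransferase, 8.06-fold. Slco1a1, an organic anion transporter, went from 4.16 to 2.51 (3.15-fold lower), Egfr, the receptor for epidermal growth factor, from 6.25 to 4.77 (2.8-fold lower), and Cyp2d9 from 8.01 to 6.99 (2.03-fold lower). Cyp4a12a (6.34 and 5.69) and Elovl3 (5.22 and 4.29) were within 2-fold. On the array before the diet, from mice of 5 weeks of age, Hsd3b5 stood at 1.31, Cyp7b1 at 4.49 and Elovl3 at 2.84. The single higher member was Bcl6, a repressor of female-biased genes, with 2.77 and 4.45 (3.19-fold).

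**Figure D3:**
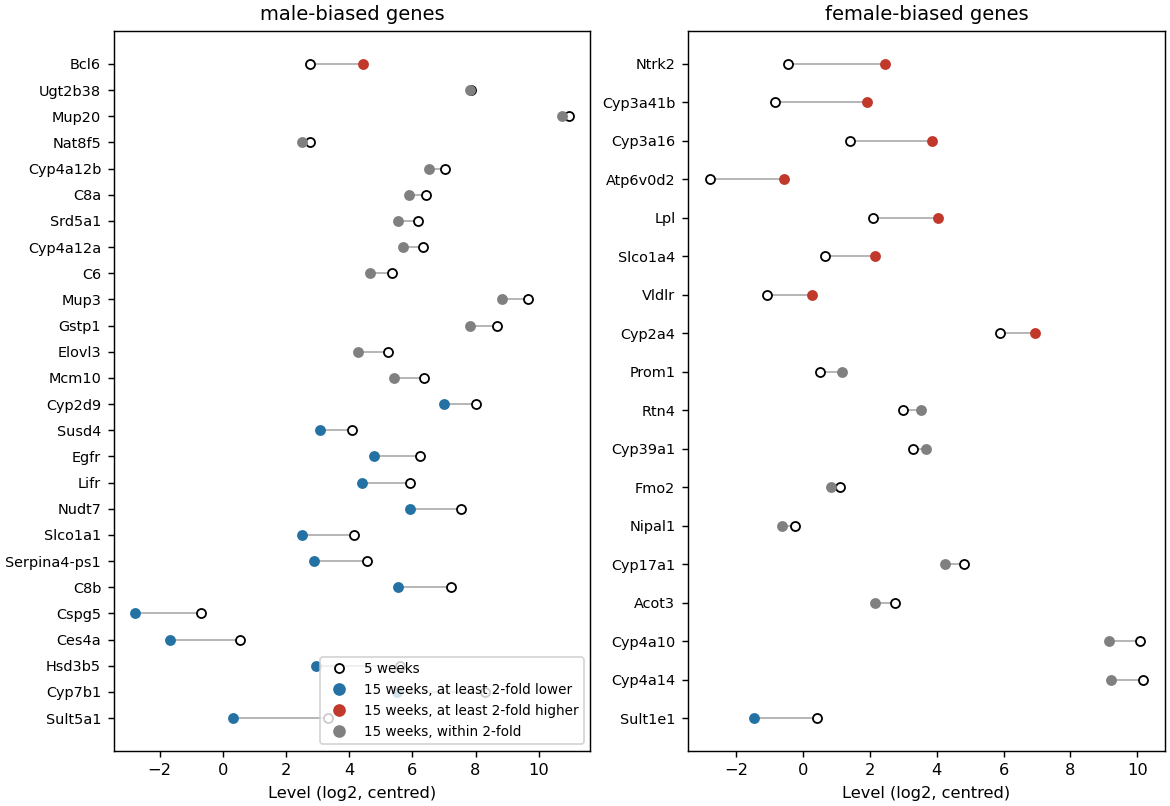
Levels (x axis, log2) of the 26 measured male-biased genes (left) and 18 measured female-biased genes (right) at 5 weeks (open circles) and 15 weeks (filled circles, 1 array each). For 13 male-biased genes the 15-week circle lies at least 2-fold to the left, and 8 female-biased genes lie at least 2-fold to the right, Ntrk2, Cyp3a41b and Cyp3a16 furthest.

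Female-biased genes had 8 of 18 measured members higher, 1 lower and a median of 0.62, and 6 more were above background only at 15 weeks. The list did not move as a whole. Of the 18 genes 11 were above the median gene and 7 below. The summed signal of the 18 was lower at 15 weeks, at 10.43 against 11.20 at 5 weeks (log2). The drug-metabolising cytochromes Cyp3a41b and Cyp3a16 went from −0.85 to 1.90 and from 1.39 to 3.87, and Ntrk2, a neurotrophin receptor, from −0.45 to 2.45 (7.46-fold). The lower member was Sult1e1, estrogen sulfotransferase, with 0.42 and −1.47. The female-biased members called higher include Lpl, Vldlr and Atp6v0d2, which also stand on the lipid or macrophage lists, and the 15-week spot of Atp6v0d2 lay in a locally bright patch. Cyp3a41b and Cyp3a16 share near-identical sequence with Cyp3a11, which went from 5.99 to 8.30 (4.96-fold), so their signals may be shared.

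In the growth hormone and IGF list the called members went both ways and the median was 0.01. The STAT5 targets Socs2 and Cish, which feed back on the growth hormone receptor, went from 2.39 to 0.52 (3.66-fold lower) and from 2.42 to 0.74 (3.2-fold lower), and the hepatocyte factor Onecut1 was at −1.59. The 15-week spot of Socs2 lay in a locally bright patch. Stat5a was 2.03-fold higher, with 0.50 and 1.52, while Stat5b (3.21 and 3.71) and the growth hormone receptor gene Ghr (6.63 on both) were within 2-fold. Igf1, the main hormone made by liver under growth hormone, had 7.33 and 6.73, and Igfals, which carries it in blood, 3.90 and 2.98. Of 11 measured major urinary protein genes, pheromone carriers under the same control, none was above the median gene. Mup21 (9.51 and 7.91) and Mup6 (0.85 and −0.96) were called, with near-identical family members that can share signal.

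Of the bile acid genes, 3 enzymes of synthesis were lower. Cyp7a1, the rate-limiting enzyme of the classic route, went from 4.15 to 1.91 (4.74-fold lower), in a locally bright patch at 15 weeks, and Cyp8b1, which makes cholic acid, from 6.38 to 5.00 (2.6-fold lower). With Cyp7b1 these were the 3 called of 25 measured genes of bile acid synthesis and transport, and none was higher. Cyp27a1 stood at 3.88 and 3.58, the nuclear repressor Nr0b2 at 1.93 and 1.86, and the transporters Abcb11 and Slc10a1 at 0.39 and 0.14 above. The list's median was −0.20, and 0.02 under quantile normalization.

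Amino acid breakdown and the urea cycle had 5 of 48 members lower and none higher, with a median of −0.33. Cps1, which feeds ammonia into the urea cycle, went from 6.44 to 5.07 (2.59-fold lower), Asl, argininosuccinate lyase, from 7.34 to 6.07 (2.42-fold lower) and the aminotransferase Got1 from 8.03 to 6.70 (2.51-fold lower). Oat was at −1.10 and Aass, of lysine breakdown, at −1.02. Asl had levels of 8.19 at 0 weeks and 6.71 at 10 weeks, and Cps1 6.85 and 5.71.

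Other hepatocyte lists moved little. Hepatocyte markers had a median of −0.24 with Cps1 the only member called of 27, and the 53 respiratory chain genes had a median of −0.21, from −0.47 to 0.92, with none called. Apolipoprotein and VLDL genes (median −0.20, with Lpl called of 31) and complement and coagulation genes (−0.22) were close to these. These medians were between 0.02 and 0.05 under quantile normalization with or without normexp, so their direction depends on the scaling. Among the complement and coagulation genes, C8b was lower (−1.68), and F13a1 (1.91) and C3ar1 (1.45) were among the higher.

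Zonation and energy genes gave mixed calls. Periportal genes had 1 of 25 higher, Aldh1b1 at 1.74, and 2 lower, and pericentral genes had 3 of 31 higher and 5 lower, among them Avpr1a, the vasopressin receptor, at −1.35. Another of the 5, the amino acid transporter gene Slc1a4 at −2.15, was read only by a probe with 6 units of the GT run described further on. Hk2, a hexokinase of other tissues, was at 1.76, and at 0.71 with normexp and quantile normalization. Ppp1r3b, which brings a phosphatase to glycogen, read 8.55 and 6.91, but its only measured probe also holds 6 units of the GT run. Gys2, liver glycogen synthase, was at −1.11. The gluconeogenic genes Pck1 (−0.58) and G6pc (−0.21) were within 2-fold. The circadian list had Arntl, encoding the clock activator BMAL1, at 1.16, and the clock output genes Dbp at −1.38 and Nr1d1 at −1.09. The time of day at which livers were taken is not given in the sources used here.

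Enzymes and transporters for foreign compounds included some of the highest differences. Glutathione S-transferases led the NRF2 and antioxidant list, of which 11 of 41 members were higher and none lower, with a median of 0.58. Gstm3 went from 2.16 to 4.43 (4.81-fold), Gsta2 from 1.69 to 3.56 (3.65-fold), Gclc, which limits glutathione synthesis, from 4.95 to 6.38 (2.69-fold) and Nqo1, a quinone reductase, from −0.84 to 0.30 (2.19-fold). Of 36 measured cytochrome and drug metabolism genes 6 were higher, including Cyp26a1, which breaks down retinoic acid, at 1.15, and 3 were lower, including Por, the electron donor of the cytochromes, at −1.45. Another of the 3, Cyp2u1 at −1.12, was read by a probe with the GT run, and the highest of its 3 probes stood at −0.06. Among transporters Abcb1a, a drug efflux pump, was at 2.71, Slco3a1 at 1.52 and Abcc1 at 1.43, and Slc22a7 was the lowest of 47. Conjugating enzymes had 7 of 43 higher and 4 lower.

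Bile duct genes had 9 of 16 members higher, 2 lower and a median of 1.09. The furthest above, Spp1 at 2.32, also stands among the recruited macrophage markers. Epcam, an adhesion molecule of biliary cells, went from −2.24 to −0.81 (2.7-fold), Sox9, a biliary transcription factor, from −1.29 to −0.02 (2.41-fold), with its 5-week spot in a locally bright patch, and Krt19, a keratin of the ducts, from 0.67 to 1.25. Krt7 went the other way, from 2.99 to −1.10, and its 5-week spot lay in a locally bright patch. Krt7 stood at −1.08 and −2.82 at 0 and 10 weeks, so 5 weeks was the array apart. Fetal and imprinted genes had 8 of 16 higher and 2 lower. H19, an imprinted noncoding RNA, stood at −2.21 and 0.91 (8.7-fold), Mest at 2.22 and Plagl1 at 1.60. Meg3 was lower at −1.08, and at −0.31 with normexp and quantile normalization. H19 was at 1.88 and Mest at 0.93 with that setting. Plagl1 had 4 measured probes, the lowest at −0.24, and Mest had 2, the lower at 0.76, with its 15-week spot in a locally bright patch. Afp, the fetal albumin, stood at −0.70 and −0.29. In the ErbB list, whose median was 0.16 and became −0.40 without the lowest 25% of levels, Nrg1 and the receptor Erbb4 (−2.16 and −0.61) were higher, Btc, encoding betacellulin, was at 1.17, and Egfr was lower. With normexp and quantile normalization Erbb4 was at 0.72 and Btc at 0.30. Annexin and S100 genes had 9 of 20 higher and none lower, led by S100a4 at 2.63, Anxa2 at 2.45 and S100a11 at 2.37.

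Lysosomal genes had 7 of 43 members higher, among them the cysteine protease Ctsk at 1.86 and the hexosaminidase chain Hexa at 1.02, with a median of 0.21. Cytoskeletal genes had 3 of 22 members higher and 1 lower, and the called tubulins went both ways. Tubb2a went from 5.37 to 7.93 (5.87-fold), Tubb6 and Tuba1a were at 2.45 and 1.47, and Tubb2b was lower at −1.10. Iron and metallothionein genes had 2 of 21 called, Steap4 and the hepcidin gene Hamp2 at 1.08, and the 43 nuclear receptors and hepatocyte factors included Pparg among the higher and Ppargc1a and Onecut1 among the lower. Adipocyte genes had Cidea, Pparg, Adrb3 (1.27) and Car3 (1.19) higher of 10, while Cfd, encoding adipsin, stood at 4.18 and 4.07. A further 3 adipocyte genes were above background only at 5 weeks and none only at 15 weeks.

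Genes above background on only 1 of both arrays have a bound in place of a difference, set by the lowest detected level on the other array. There were 1812 such genes at 15 weeks and 461 at 5 weeks, and the bound reached 2-fold for 340 and 255 of them. Cyp2b10, a target of the xenobiotic receptor CAR, had a level of 2.54 at 15 weeks and was at least 63.4-fold higher than at 5 weeks, when it was not well above background. On the array before the diet it stood at 6.59. Egr2, an immediate early gene, was at least 13.5-fold higher, Ccl7, a monocyte chemokine, at least 13.3-fold, and Hcar2, a receptor for beta-hydroxybutyrate and niacin, at least 9.5-fold. The others of the 10 largest bounds were 1700122O11Rik (46.6-fold), Gldn (8.97-fold), Tinag (8.4-fold), Inpp5j (7.8-fold), Scg3 (7.27-fold) and Fabp3 (7.24-fold).

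On the other side stood Dmbt1, encoding a mucosal scavenger protein, with a level of 5.08 at 5 weeks and a bound of at least 501-fold lower, and Moxd1, a monooxygenase-like gene, with 4.12 and at least 257-fold lower. Dmbt1 had a level of 6.92 at 0 weeks and was undetected at 10 weeks as well, at −5.44. Moxd1 was undetected at 0 weeks and stood at 1.53 at 10 weeks. Spink4, a trypsin inhibitor of mucous epithelium, was at least 16-fold lower, Tex15 at least 11.2-fold and Adipoq, encoding adiponectin of fat cells, at least 7.56-fold. For Lipn, Gpr45, Gpr37l1, Wif1 and Trpm5 the bounds lay between 6.72-fold and 6.12-fold.

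The probes with a GT run are shown because they took 12 of the 20 places furthest below among RefSeq-named genes. The stretches are 30 bases of the probe as the scanner files give it, 5′ to 3′ with the run in capitals, and the positions are those the files give for the whole probe of 60 bases in build mm9.
Cacna2d2, 4 units, chr9:107431245-107431304: cctgtgggggcGTGTGTGTaactgtagtgt
2300009A05Rik, 5 units, chr9:63242254-63242312: ctGTGTGTGTGTatgcagtatttatttttg
Hs2st1, 6 units, chr3:144094574-144094633: aatgtcaatGTGTGTGTGTGTctatgttta
Gxylt2, 7 units, chr6:100754726-100754785: ggatatttGTGTGTGTGTGTGTgaatattt
Zfp791, 8 units, chr8:87633108-87633167: cagagatGTGTGTGTGTGTGTGTtttagaa
Capza1, 9 units, chr3:104626205-104626264: tggcagGTGTGTGTGTGTGTGTGTgatctc
From Cacna2d2 to Capza1 these probes differed between 15 and 5 weeks by 0.06, −0.43, −2.08, −2.25, −1.99 and −2.0.

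The same order held over all measured probes. With 4 units the median of 75 probes was 0.03, with 5 units that of 34 probes was −0.57, with 6 units that of 30 probes was −2.15, and with 7 units that of 11 probes was −2.24. With 8 or more units 67 of 71 probes were at least 2-fold lower, and the median was −1.68. Already with 4 units 9 of the 75 probes (12%) were at least 2-fold lower, against 2.14% with 3 units. In all, 118 of 146 probes with at least 5 units were lower and none was higher, and their median level was 7.33, 7.23, 6.94 and 4.99 at 0, 5, 10 and 15 weeks. For 38 genes with both kinds of probe, the repeat probes had a median of −1.34 and 27 were lower, whereas the other probes had a median of 0.04, with none lower and 3 higher. Probes with at least 5 units of the complementary run CA had a median of 0.54, and 22 of 61 were higher. What these probes read was not tested.

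**Figure D4:**
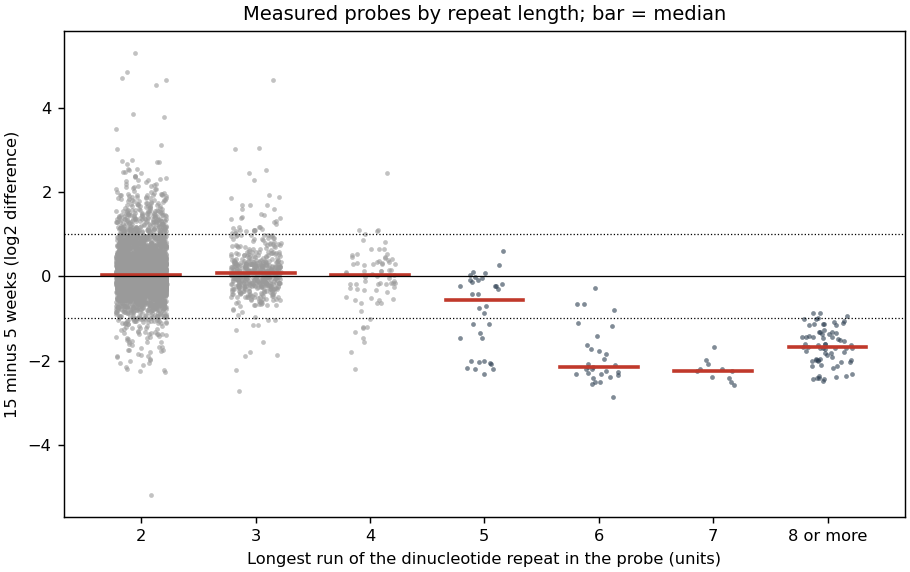
Log2 difference of 15 minus 5 weeks (y axis) for each measured probe, by the longest run of the repeat in its sequence (x axis, units of 2 bases), with a red bar at the median and dotted lines at 2-fold. Medians stay near 0 up to 4 units, then lie at −0.57, −2.15, −2.24 and −1.68.

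The arrays at 0 and 10 weeks place the contrast among the other times, with the 5-week array shared by each difference, so the values are given side by side and not as separate support. The cell cycle list had medians of 0.24 at 10 weeks and 1.59 at 15 weeks relative to 5 weeks, and the recruited macrophage list 0.04 and 2.25. MHC class II had −1.15 at 0 weeks, 0.55 at 10 weeks and 1.39 at 15 weeks, and the interferon list had −0.71, 0.41 and 0.30. Male-biased genes had −1.02 at 0 weeks, −0.25 at 10 weeks and −0.98 at 15 weeks. The cytochrome list had 0.38 at both 0 and 10 weeks and −0.22 at 15 weeks.

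**Figure D5:**
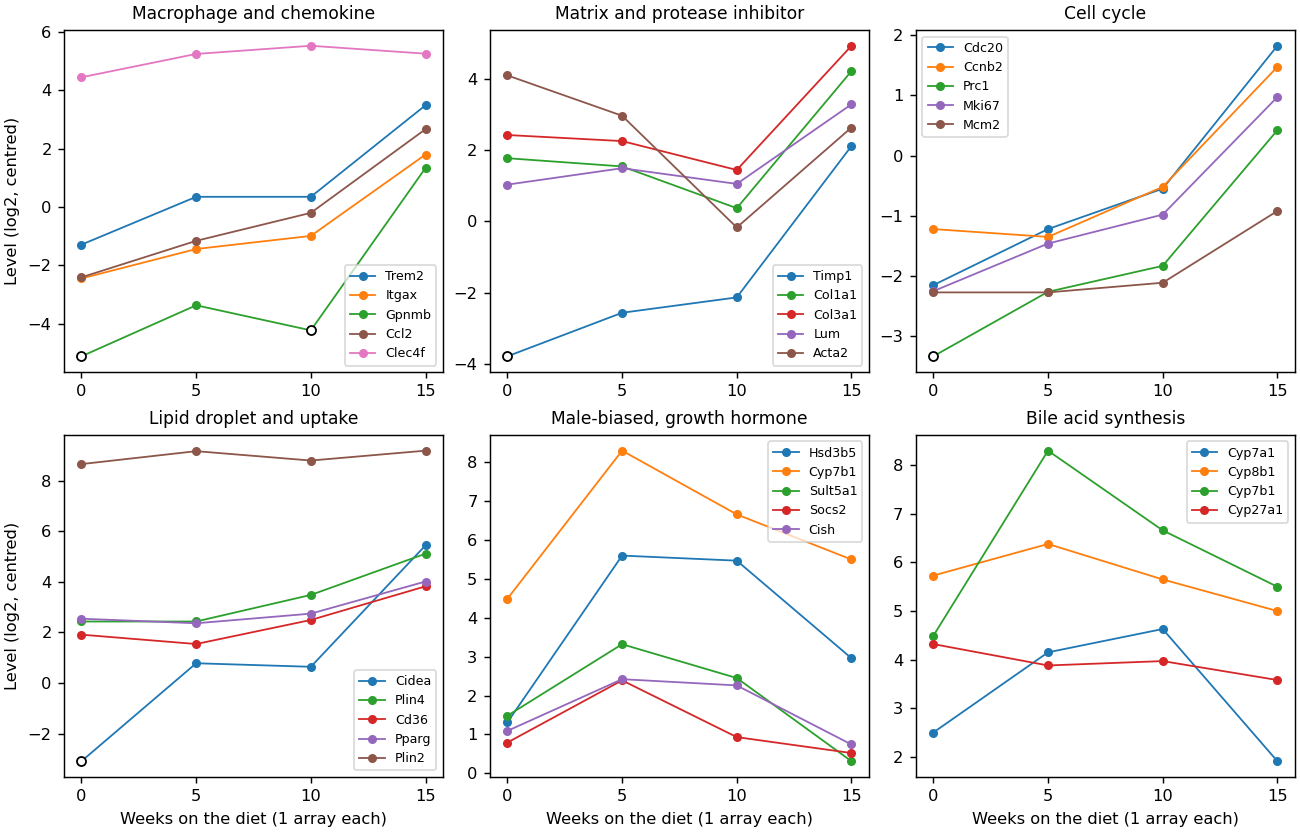
Levels (y axis, log2) of named genes on the 4 arrays by weeks on the diet (x axis, 1 array each), with open points for arrays where the probe was not well above background. Timp1, Cidea and Gpnmb jump between 10 and 15 weeks, Acta2 is lowest at 10 weeks, and Cyp7b1 peaks at 5 weeks. Hsd3b5 is nearly level from 5 weeks (5.60) to 10 weeks (5.47) and lower at 0 and 15 weeks.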

How the data were processed

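Per the labels' protocols, total RNA from frozen liver was amplified from 100 ng, labelled with Cy3 and hybridised to 1-colour Agilent arrays; per the file headers all 4 share 1 scan time, so no scan batch divides them. The authors deposited the processed signal intensity of each spot, read with Feature Extraction 10.7.3.1 per the file headers, from which the software had subtracted background. The deposited value table holds this intensity divided by each array's median.

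Here the log2 processed signal was set against the 75th percentile of all non-control spots of its array and then centred on the median measured probe. Outlier spots were left out, spots of a probe averaged, and a gene read by its brightest probe over the 4 arrays. Names came from RefSeq (GRCm38.p6), by accession for 27593 of 55681 probes, by symbol for 3497 and by an older symbol for 393. Bounds use the lowest level well above background. The members and the 54 gene lists were chosen with earlier results of these data known, and of 1400 listed genes 1200 were measured. The text names the 20 genes with a RefSeq symbol furthest each way outside the lowest 25% of levels and outside locally bright patches, list members past 2-fold or shown within it, and the 10 largest bounds each way; a few list members are not reported here by name. A patch counted as locally bright where at least 4 of 44 neighbouring spots exceeded their median on the other arrays by 2-fold, a rule set after values were seen. Where a gene had several probes they could disagree: among 293 called genes with several, 55 had a probe of opposite direction. The contrast was tested on simulated data. Python 3.11.15, pandas 2.3.3 and limma 3.58.1 were used.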

Additional observations from a re-analysis of the deposited data

How the results depend on the processing

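Each difference rests on 1 array a time, so these settings show how the processing moves the values and not how animals vary. All 324 named genes past 2-fold kept their direction under each of 13 other settings that gave them a value, and 194 stayed past 2-fold in each; 98 fell within it under normexp with quantile normalization and 61 with the 75th percentile not centred. The median gene itself stood at −0.21 with the 75th percentile not centred, −0.08 with the array median, −0.05 with detected probes or quantile normalization and 0.24 with spike-in scaling. Against 1092 higher and 491 lower genes, the counts were 709 and 750 with the 75th percentile not centred, 1706 higher with spike-in scaling, 456 and 284 with normexp, 2691 and 2246 without the background filter, and 305 lower without the lowest 25% of levels. Higher calls were 54.5% of calls without the filter. With a 1.5-fold threshold they were 2378 and 1278, and with 3-fold 321 and 192. With RefSeq symbols only, a choice made after seeing the data like that of leaving out the repeat probes, 312 were lower. The other settings kept both counts within 1.5 times, and the deposited table gave the same counts.

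List medians are relative to the median gene. Under quantile normalization those of acute phase (0.07), apolipoprotein (0.05), bile acid (0.02), complement (0.04), hepatocyte (0.05), respiratory chain (0.03) and periportal (0.07) genes changed sign, and with normexp those of acute phase (0.07), apolipoprotein (0.02), complement (0.03), hepatocyte (0.02), respiratory chain (0.03) and periportal (0.03) genes did. Without the background filter acute phase (0.02), adipocyte (−0.11) and nuclear receptor (0.05) lists changed sign, and without the lowest 25% of levels the ErbB list did (−0.40). The cause of these shifts was not tested. By mean level in 4 equal groups, from lowest to highest, 358, 428, 235 and 71 genes were higher and 186, 87, 61 and 157 lower. No paired analysis was possible because each time has 1 array.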
